A study of Mus musculus with 768 samples.

Results

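Cxcl9, Cxcl10 and Cxcl11 encode the 3 chemokines that bind CXCR3, a receptor carried by activated T cells and natural killer cells. They are described here in single endothelial cells of mouse lymph node and tumour, as 3 of the 51734 genes counted in each cell. They were chosen by symbol, with no level in the rule. All 3 were low in the high endothelial venules (HEVs) of lymph node. Cxcl9 and Cxcl10 were higher in HEV cells of tumour, in every plate of cells, and Cxcl9 was also higher in every plate of the other tumour endothelial cells. In the latter Cxcl10 varied from below to above the lymph node level by plate. Cxcl11 was higher in the tumour plates too in pooled level, in 1 of them by little. By share of cells at equal depth Cxcl11 was not: it was found in 10.7% of lymph node HEV cells, 15.3% of tumour HEV cells and 8.00% of the other tumour endothelial cells, with overlapping intervals.

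CXCR3 ligands are produced by endothelial cells, macrophages and other cells after exposure to interferons. Interferon-gamma acts through its receptor (Ifngr1, Ifngr2) and the kinases Jak1 and Jak2, and it induces Irf1 and a family of defence GTPases (Gbp and Irg genes). Cxcl9 is known mainly as an interferon-gamma target, while Cxcl10 and Cxcl11 also respond to type I interferons, and Cxcl10 to NF-kB. HEVs are the venules through which lymphocytes enter lymph nodes, and chemokines shown on an endothelial surface help arrest such cells.

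The cells were sorted without CD45, the pan-leukocyte antigen, and with CD31, an endothelial antigen. LN_HEV cells were MECA79-positive cells of lymph node, TU_HEV cells MECA79-positive cells of PyMT tumours, and TU_EC cells MECA79-negative cells of PyMT tumours. MECA79 is an antibody to the sulfated glycans of HEVs, and PyMT is a mouse breast cancer model driven by a viral oncogene. The labels used here give no strain, age, sex, treatment or animal, so it is unknown how many mice or tumours each gate holds. Each gate is therefore 1 sample, no p-value is given, and intervals cover counting error only. LN_HEV came from plates pool1 and pool2, TU_HEV from pool3 and pool4, and TU_EC from poolA to poolD, with 96 wells a plate.

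Filters on reads and on endothelial markers left 62 cells of pool1 and 79 of pool2 in LN_HEV, 50 of pool3 and 48 of pool4 in TU_HEV, and 68, 81, 82 and 72 of poolA to poolD in TU_EC. The gates' summed counts were 142357765, 146215450 and 221773977, and the median cell held 1056419, 1431389 and 625611 counts. TU_EC libraries came in a file and a series of library numbers of their own, so that set of libraries and the TU_EC gate cannot be told apart. Ribosomal RNA features took 13.5% of counts in LN_HEV, 8.09% for TU_HEV and 25.3% for TU_EC. All 5 pan-endothelial markers were present in every gate, at a summed level of 5380 to 6765 CPM (counts per 1000000 counts of the gate). Each retained cell needed at least 2 of these 5 at 10 CPM, so their presence was partly set by the filter. The 6 high endothelial markers summed to 70598 CPM in LN_HEV, 744 in TU_HEV, where Parm1 and Lrp2 were at 0, and 32.9 in TU_EC, where Chst4 and Fut7 were at 0.

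Some libraries of pool1 share counts with TU_HEV. By the rule, 11 pool1 libraries were dropped, and each holds the counts of 1 or more of 19 TU_HEV libraries, of which 16 were retained. Library S22, for instance, had 3846 counts of Cxcl9, 4267 of Cxcl10 and 2125 of Cxcl11, and so did TU_HEV library S221. The held libraries' numbers begin with the number of the holding library. The same held for 4 pool1 libraries outside the rule, S23, S26, S29 and S33, which remain among the LN_HEV cells. Library S26 had 438 counts of Cxcl9, the same number as TU_HEV library S269, and their Cxcl10 counts were equal too. S269 did not pass the read filters. Without these 4, the LN_HEV level was 11.2 CPM in place of 14.1 for Cxcl9, 27.4 in place of 28.6 for Cxcl10 and 12.1 in place of 11.9 for Cxcl11. With the 11 dropped libraries put back, the ratios of TU_HEV to LN_HEV given below were 8.84 for Cxcl9, 4.18 for Cxcl10 and 3.29 for Cxcl11, and those of TU_EC to LN_HEV were 7.14, 1.28 and 4.10.

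The 3 genes lie side by side on chromosome 5 in GRCm38, all on the minus strand (GENCODE M21). Cxcl9 spans 92321347 to 92328079, Cxcl10 92346638 to 92348889, and Cxcl11 92359544 to 92365485. The annotation lists Cxcl9 and Cxcl10 as protein-coding and Cxcl11 as a polymorphic pseudogene, a class for genes intact in some mouse strains and not in others. Art3, on the plus strand from 92331827 to 92414628, spans Cxcl10 and Cxcl11. It shares exon bases with Cxcl10 and none with Cxcl11, and the strand setting of the counting is not given in the sources used here, so reads in those bases cannot be assigned between them. The pseudogene Gm2673, also on the plus strand, covers 1582 exon bases of Cxcl11 and had 0 counts in every gate.

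The 250 bases before the start of Cxcl9 and of Cxcl10 are shown because the genes that followed these ligands across cells, described below, included interferon and NF-kB response genes. They are RefSeq sequences of GRCm38.p6, minus strand, chr5:92328080-92328329 and chr5:92348890-92349139. Cxcl11 was not in the table. Capitals mark matches on either strand to 3 motifs: an interferon-stimulated response element (GAAA, any 2 bases, GAAA), a gamma-activated site (TTC, any 3 bases, GAA) and the NF-kB consensus.
Cxcl9: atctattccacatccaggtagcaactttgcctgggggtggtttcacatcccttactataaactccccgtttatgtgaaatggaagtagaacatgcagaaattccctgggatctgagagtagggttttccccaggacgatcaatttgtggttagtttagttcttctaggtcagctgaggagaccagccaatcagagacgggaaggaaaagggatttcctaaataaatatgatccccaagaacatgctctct
Cxcl10: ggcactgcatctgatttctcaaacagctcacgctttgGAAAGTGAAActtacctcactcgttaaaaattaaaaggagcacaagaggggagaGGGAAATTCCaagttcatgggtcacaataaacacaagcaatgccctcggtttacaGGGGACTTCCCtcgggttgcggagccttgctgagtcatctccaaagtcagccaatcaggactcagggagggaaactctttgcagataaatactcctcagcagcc
The Cxcl10 window held 1 interferon-stimulated response element, the first run of capitals. The other 2 runs are NF-kB consensus matches, of which the one nearer the start holds 2 overlapping matches. The Cxcl9 window held no match to any of the 3. Of 32851 promoter windows of this length, 2.98% held the response element, 7.02% the gamma-activated site and 7.25% the NF-kB consensus. A match is a run of letters and not a measured binding site. A window without a match can still hold sites that differ from these letters, and sites can lie outside it.

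Cxcl9, whose product recruits activated T cells, stood at 14.1 CPM in LN_HEV (95% exact Poisson interval 13.5 to 14.7), 483 CPM in TU_HEV (479.8 to 487), with TU_EC at 391 CPM (388 to 393). By plate it was 15.9 CPM in pool1 and 12.9 in pool2, 649.9 in pool3 and 351.7 in pool4. The TU_EC plates gave 420.1 in poolA, 804 in poolB, 144.02 in poolC and 153.9 in poolD. Every tumour plate was above both lymph node plates, and the TU_EC plates spanned the range of the TU_HEV plates. The ratio of TU_HEV to LN_HEV was 34.3 (interval 32.8 to 35.9), and that of TU_EC to LN_HEV was 27.7 (26.5 to 29.0). The second was 16.6 without poolB. With each cell given equal weight these ratios were 9.66 and 6.22. In that average the cell S26 of pool1 weighs most, at 4528 CPM in a library of 96741 counts.

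Cxcl10, a ligand that responds to interferons and to NF-kB, stood at 28.6 CPM in LN_HEV (27.7 to 29.5), 455 in TU_HEV (451 to 458), with TU_EC at 139.1 (137.5 to 140.6). Pool1 gave 11.8 CPM, pool2 40.1, pool3 663 and pool4 290.7. In TU_EC it was 158.8 in poolA, 343.1 in poolB, 26.5 in poolC and 6.11 in poolD. TU_HEV lay above every lymph node plate, whereas the TU_EC plates ran from below pool1 to above pool4. The TU_HEV to LN_HEV ratio was 15.9 (15.4 to 16.4), and was 38.7 without pool2, 10.2 without pool3, 27.3 without the highest cell of each gate and 9.55 with equal weight per cell. That of TU_EC to LN_HEV was 4.87 (4.71 to 5.03), with 5 of 8 pairs of plates higher in TU_EC. It was 2.15 without poolB, 11.8 without pool2, 2.72 with equal weight per cell and 1.28 with the 11 dropped libraries put back. In the equal-weight average of LN_HEV the cell S26 of pool1 again weighs most, at 2419 CPM. Its Cxcl10 counts equal those of TU_HEV library S269. The mean over cells was 46.99 CPM in pool1, against 11.8 pooled, and 34.4 CPM in pool2, against 40.1 pooled. Both equal-weight ratios therefore rest in part on S26.

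Cxcl11, the ligand with the strongest binding to CXCR3, stood at 11.9 CPM in LN_HEV (11.3 to 12.5), 102.6 in TU_HEV (100.98 to 104.3), with TU_EC at 128.01 (126.5 to 129.5). The lymph node plates gave 13.6 CPM in pool1 and 10.7 in pool2, and the TU_HEV plates 193.2 in pool3 and 31.1 in pool4. In TU_EC it was 265.6 in poolA, 197.6 in poolB, 37.3 in poolC and 14.3 in poolD. All tumour plates were above both lymph node plates, poolD by 1.05-fold over pool1. Without S23, S26, S29 and S33 pool1 was at 14.1 CPM, nearly level with poolD. The ratio of TU_HEV to LN_HEV was 8.62 (8.20 to 9.07), and was 2.61 without pool3, 16.2 without pool4 and 5.50 after thinning. That of TU_EC to LN_HEV was 10.8 (10.2 to 11.3), and was 6.42 after thinning and 6.71 with equal weight per cell.

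**Figure D1:**
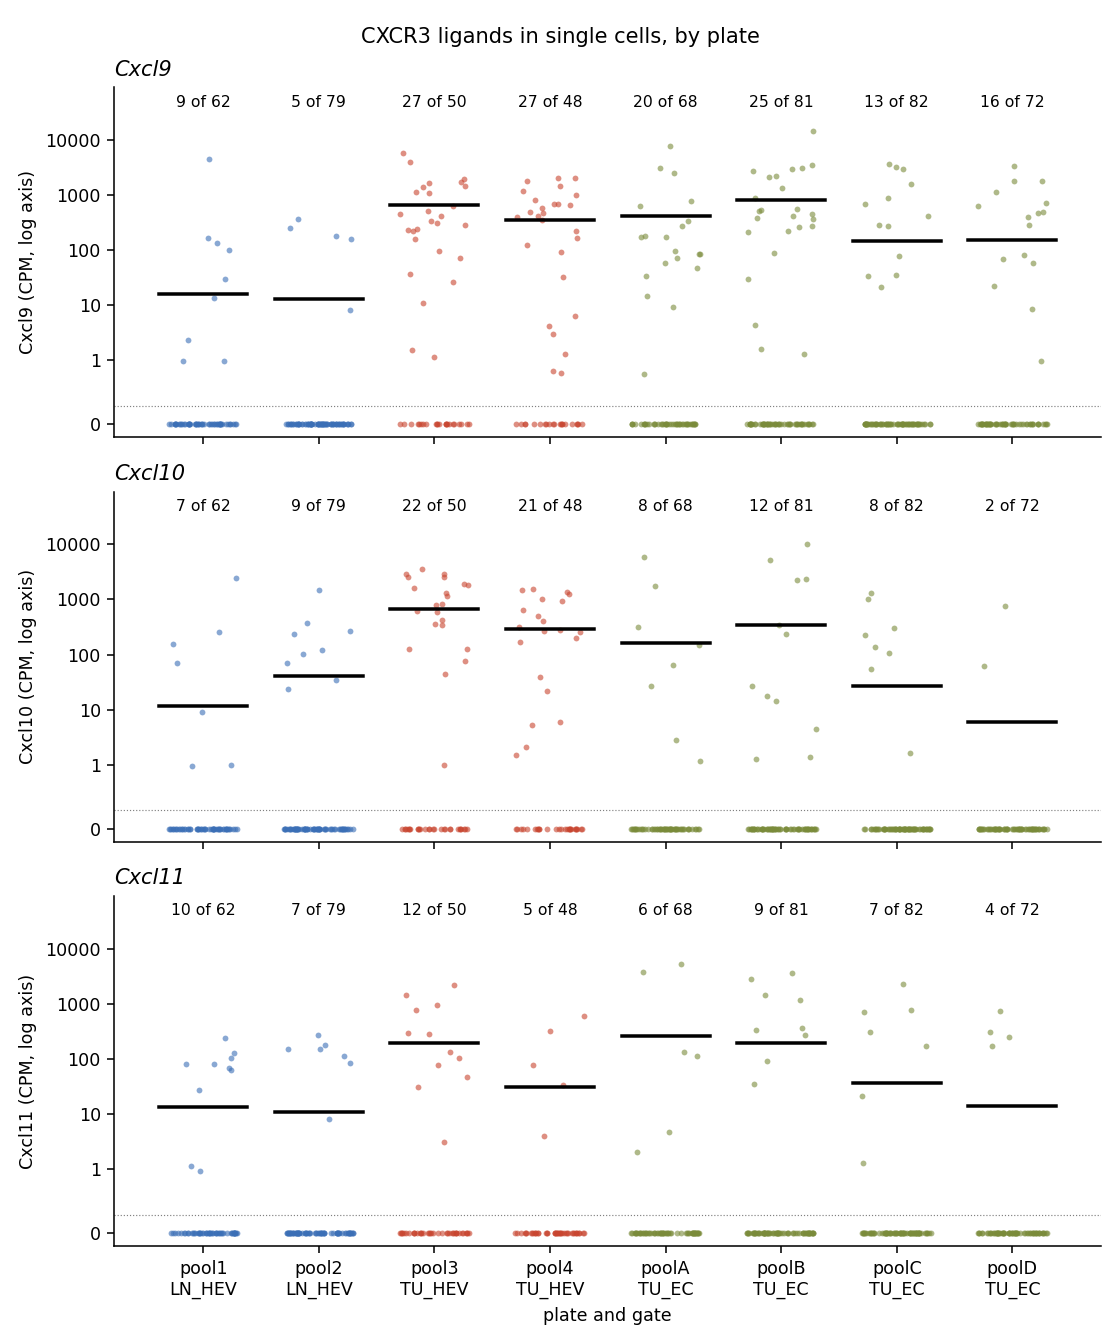
Each point is 1 retained cell, placed by plate (with horizontal jitter) and by its level in CPM on a log axis, with cells at 0 drawn below the dotted line; black bars give the pooled CPM of the plate and the figures at the top the cells with a count. Most cells are at 0 for each ligand, and in pool3 and pool4 27 of 50 and 27 of 48 cells have Cxcl9 against 9 of 62 and 5 of 79 in the lymph node plates.

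Both tumour gates are compared with the same LN_HEV cells, so their ratios to it are not independent. All 3 ligands were at least 2-fold higher in TU_HEV than in LN_HEV, as were 21.4% of the 7343 genes that reached 20 CPM in either gate, and 0 of 3 were 2-fold lower, as 6.9% of genes were. Both TU_HEV plates lay above both LN_HEV plates for all 3 ligands, as they did for 41.2% of genes. Cxcl9 alone of the 3 was 20-fold higher or more, a size reached by 1.72% of genes. In TU_EC all 3 were at least 2-fold higher than in LN_HEV, against 15.3% of genes, and none was 2-fold lower, against 15.7%. Cxcl9 was again past 20-fold, as 2.58% of genes were. Every TU_EC plate lay above every LN_HEV plate for Cxcl9 and Cxcl11, as for 22.4% of genes. The median log2 ratio over all genes was 0.32 for TU_HEV over LN_HEV and -0.13 for TU_EC over LN_HEV.

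Between the tumour gates only Cxcl10 differed by 2-fold or more in pooled level. It was 3.27-fold higher in TU_HEV than in TU_EC (3.23 to 3.32), in 7 of 8 pairs of plates, and 19.4% of genes were at least 2-fold higher in TU_HEV and 5.08% lower. None of the 3 had both TU_HEV plates above all TU_EC plates, as 39.1% of genes had, or below them, as 8.6% had. The pairs of plates ran from 0.847 to 108.5, and the ratio was 7.39 without poolB and 2.09 without pool3. For Cxcl9 the ratio of TU_HEV to TU_EC was 1.24 (1.22 to 1.25), with 5 of 8 pairs higher and pairs from 0.437 to 4.51. It was 0.900 without pool3, 2.07 without poolB and 0.906 with TMM scaling (a trimmed mean of gene ratios). For Cxcl11 the ratio was 0.802 (0.786 to 0.818), with 3 of 8 pairs higher. It was 0.243 without pool3, 1.51 without pool4, 1.17 without poolA and 1.01 without poolB. The order of TU_HEV and TU_EC in pooled level of Cxcl9 and Cxcl11 is thus within the spread of the plates. TMM moved all log2 ratios of TU_HEV over TU_EC by -0.45, where the median gene stood at 0.42 before it. It moved those of TU_HEV over LN_HEV by -0.29 and of TU_EC over LN_HEV by 0.16.

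Per kilobase of the exon union, the order of the ligands differed between gates. In TU_HEV Cxcl10 was at 202.02 CPM per kb, Cxcl9 at 160.3 and Cxcl11 at 27.0. In TU_EC Cxcl9 led at 129.5 CPM per kb, with Cxcl10 at 61.7 and Cxcl11 at 33.7. In LN_HEV Cxcl10 was at 12.7 CPM per kb, Cxcl9 at 4.67 and Cxcl11 at 3.14. That order rested on pool2, since in pool1 Cxcl9 was at 5.27 and Cxcl10 at 5.23, and in poolD of TU_EC Cxcl11, at 3.76, was above Cxcl10, at 2.71. Smart-seq2 reads whole transcripts, so counts scale with length, and exon unions from GENCODE served as the lengths. For Cxcl10 the union of 2252 bases equals the whole gene span, so it can exceed the length of a spliced transcript. The level per kb of Cxcl10 may therefore be understated, and the order of the ligands within a gate depends on the lengths used.

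Shares of cells were taken after each cell was thinned at random to 100000 counts, so that depth was equal. Cxcl9 was found in 6.43% of LN_HEV cells (exact binomial 95% interval 2.98 to 11.9), 45.9% of TU_HEV cells (35.8 to 56.3) and 22.3% of TU_EC cells (17.7 to 27.5). Cxcl10 was found in 8.57% (4.51 to 14.5), 39.8% (30.0 to 50.2) and 8.67% (5.74 to 12.4). Cxcl10 was thus as sparse in TU_EC as in LN_HEV by share of cells, while its pooled level was 4.87-fold apart. For Cxcl11 the shares were 10.7% (6.12 to 17.1), 15.3% (8.83 to 24.0) and 8.00% (5.19 to 11.7), with intervals that overlap in all gates. Without thinning, Cxcl9 was counted in 14, 54 and 74 cells of LN_HEV, TU_HEV and TU_EC, Cxcl10 in 16, 43 and 30, and Cxcl11 in 17, 17 and 26. Any of the 3 was found in 22.1% of thinned LN_HEV cells, 56.1% of TU_HEV cells and 23.7% of TU_EC cells.

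**Figure D2:**
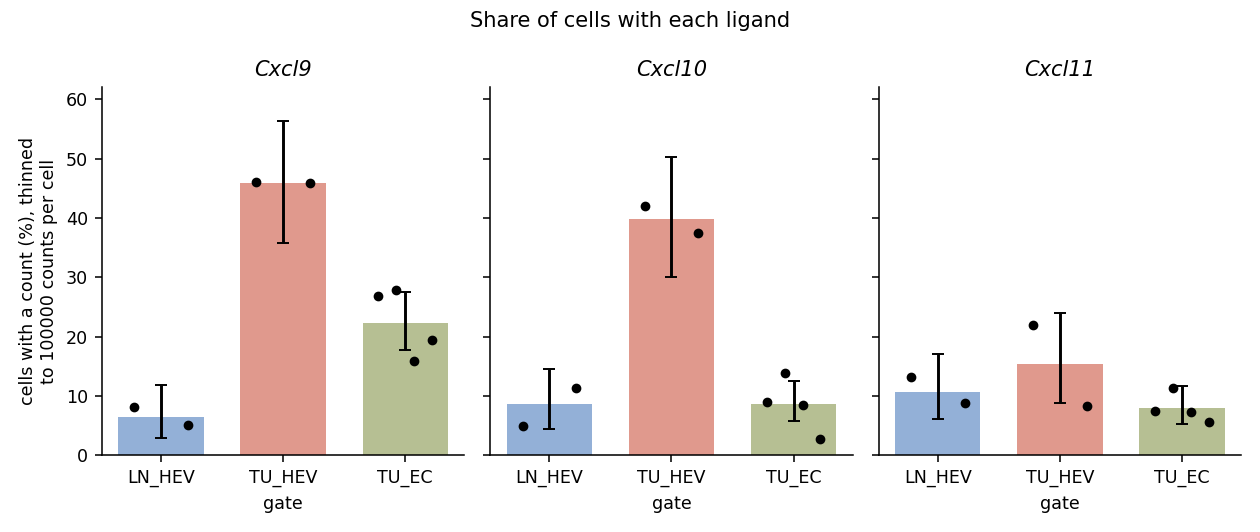
Bars give the percentage of cells of each gate with a count of the ligand after thinning, whiskers the exact binomial 95% interval, and black points the plates. Cxcl9 and Cxcl10 are found in 45.9% and 39.8% of TU_HEV cells, above all TU_EC and LN_HEV plates, and Cxcl11 in 15.3%.

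The shares by plate were close in TU_HEV for Cxcl9, at 46.0% in pool3 and 45.8% in pool4, and for Cxcl10, at 42.0% and 37.5%. For Cxcl11 they were 22.0% and 8.33%. In TU_EC Cxcl9 ran from 15.9% to 27.8% of cells over the plates, Cxcl10 from 2.78% to 13.9% and Cxcl11 from 5.56% to 11.4%. For each ligand poolB had the highest share in TU_EC.

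Among cells with a count, levels were widely spread. In TU_HEV the lowest, median and highest Cxcl9 levels were 0.587, 406 and 5713 CPM, and those of Cxcl10 0.993, 503 and 3514 CPM. In TU_EC they were 0.558, 350.1 and 14694 CPM for Cxcl9, and 1.17, 141.7 and 10291 CPM for Cxcl10. For Cxcl11 the median was 131.8 CPM in TU_HEV and 306.03 CPM in TU_EC, with highest cells of 2152 and 5214 CPM. In LN_HEV the medians were 118.9, 112.8 and 83.8 CPM for Cxcl9, Cxcl10 and Cxcl11. The TU_EC gate therefore held fewer cells with Cxcl10 than TU_HEV but included the highest single cell.

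The pooled levels rested on few cells in TU_EC and LN_HEV and on more in TU_HEV. In TU_EC the highest cell, S160 of poolB, gave 33.4% of all Cxcl9 counts of the gate, S149 of poolB gave 34.9% of Cxcl10, and S54 of poolA gave 37.7% of Cxcl11. The 90% of counts that came from the highest cells were held by 19 cells for Cxcl9, 6 for Cxcl10 and 7 for Cxcl11. In TU_HEV the highest cells gave 17.8%, 9.02% and 31.6%, and 24, 21 and 7 cells held 90%. Cxcl9 and Cxcl10 were thus spread over more of the 98 TU_HEV cells, while Cxcl11 rested on as few cells as in TU_EC. In LN_HEV 7, 8 and 11 cells held 90% of Cxcl9, Cxcl10 and Cxcl11.

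The ligands were often found in the same tumour cells, here counted without thinning, so that depth was not equal. After thinning, Cxcl9 was in 95.8% of TU_EC cells with Cxcl11 and 15.9% of the others. In TU_HEV it was then in 76.9% of cells with Cxcl10 and 25.4% of the others. The values that follow are without thinning. In TU_EC 24 of the 26 cells with Cxcl11 also had Cxcl9 (92.3%, against 18.1% of the other cells), and 16 had all 3. In TU_HEV 36 of the 43 cells with Cxcl10 also had Cxcl9 (83.7%, against 32.7% of the others), and 10 cells had all 3. Cxcl9 was alone in 42 of 74 TU_EC cells and in 14 of 54 TU_HEV cells, and Cxcl10 was alone in 6 of 30 and 5 of 43. In LN_HEV Cxcl9 was found in 31.3% of the 16 cells with Cxcl10 and 7.20% of the others. There 14 of the 17 cells with Cxcl11 had neither of the others, and 1 had all 3.

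Levels moved together across cells as well. On log2(CPM + 10) of thinned cells, Pearson's r between Cxcl9 and Cxcl11 ran from 0.63 to 0.81 over the 4 TU_EC plates, and between Cxcl10 and Cxcl11 from 0.66 to 0.83. Between Cxcl9 and Cxcl10 it ran from 0.37 to 0.62. In TU_HEV r was 0.59 in pool3 and 0.33 in pool4 for Cxcl9 with Cxcl10, 0.48 and 0.37 for Cxcl9 with Cxcl11, and 0.49 and 0.12 for Cxcl10 with Cxcl11. In LN_HEV Cxcl9 with Cxcl10 gave 0.35 in pool1 and 0.17 in pool2, Cxcl9 with Cxcl11 0.20 and 0.11, and Cxcl10 with Cxcl11 -0.08 and -0.10. These are descriptions over 48 to 82 cells of a plate, which share a plate and have many cells at 0 for both genes. The r of each ligand with the log2 total of the cell was at most 0.33 in any plate of TU_HEV. That is above the limit of 0.3 used below for genes that follow a ligand. Over all cells of TU_HEV it was 0.26 for Cxcl9, 0.25 for Cxcl10 and 0.19 for Cxcl11. Over those of TU_EC it was 0.04, 0.001 and 0.05. The part of depth in the r values was not tested.

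**Figure D3:**
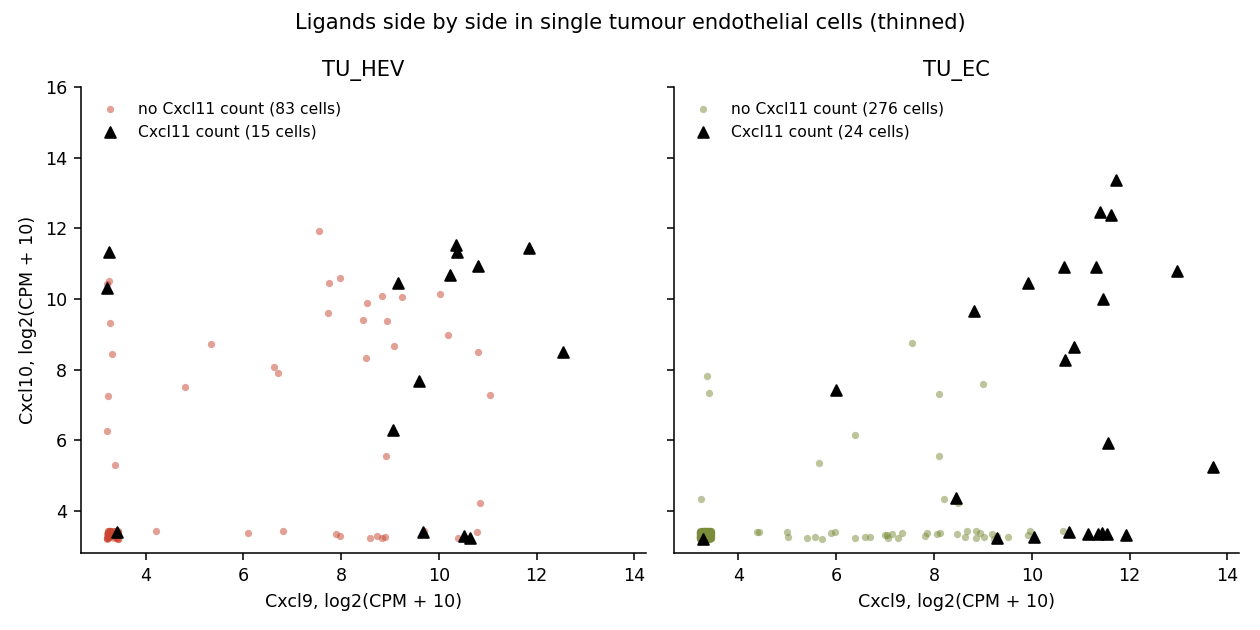
Each point is 1 thinned cell of TU_HEV (left) or TU_EC (right), with Cxcl9 on the horizontal and Cxcl10 on the vertical axis, both as log2(CPM + 10) with slight jitter; black triangles are cells with a Cxcl11 count. In TU_EC 23 of the 24 triangles have Cxcl9, and the cells with Cxcl9 but no Cxcl10 form the row along the bottom.

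Genes that follow a ligand were taken as those whose r with it was at least 0.3 in every plate of the gate, among genes found in at least 20% of its thinned cells. This was done for Cxcl9 and Cxcl10 in TU_HEV and for all 3 ligands in TU_EC. Cxcl11 in TU_HEV, at 15 thinned cells, and the 3 ligands in LN_HEV, at 9, 12 and 15, had too few cells. Of 4924 genes compared in TU_HEV, 21 (0.426%) followed Cxcl9 and 49 (0.995%) followed Cxcl10. Of the 4747 or 4748 compared in TU_EC, 7 followed Cxcl9, 4 Cxcl10 and 7 Cxcl11.

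In TU_HEV most of the genes that followed Cxcl9 most closely were interferon-induced. Gbp2, a guanylate-binding defence GTPase, had r of 0.49 in pool3 and 0.65 in pool4, and Isg15, a ubiquitin-like protein, 0.50 and 0.49. Irf8, an interferon-induced transcription factor, had 0.44 and 0.50. The GTPases Gbp10, Gbp11, Igtp, Gbp5, Tgtp2 and Ifi47 and the receptor kinase Kit made up the first 10, with a smallest r of 0.35 to 0.43. Further down were Cd74, the invariant chain of MHC class II (0.33 and 0.32), and Ubd, a ubiquitin-like protein (0.32 and 0.71). Pfkfb3, Ak3, Rab18, M6pr and Srgn followed Cxcl9 as well. All 10 of the listed interferon-gamma GTPases had a positive r with Cxcl9 in both plates, as did 33.4% of all genes compared, and 4 reached 0.3, as 0.426% of all genes did. None of the 6 NF-kB genes reached it.

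The genes that followed Cxcl10 most closely in TU_HEV were other ones. Irf1, the transcription factor induced by interferon-gamma and NF-kB, led with r of 0.72 in pool3 and 0.52 in pool4. Next were Irgm1, an interferon-induced GTPase (0.54 and 0.48), Atf3, a stress-induced transcription factor (0.46 and 0.51), and Zfp36, which destabilises cytokine messenger RNAs (0.48 and 0.45). Nfkbiz and Map3k8 of the NF-kB and inflammatory kinase pathways, Socs1, the inhibitor of interferon signalling, the chaperone Dnajb1 and the immediate early genes Ier3 and Egr1 made up the first 10. Of the lists, 3 of 10 interferon-gamma GTPases (Irgm1, Igtp, Ifi47), 1 of 6 type I interferon effectors compared (Isg15), 2 of 6 NF-kB genes (Nfkbia, Tnfaip3) and 2 of 2 feedback genes (Socs1, Socs3) reached 0.3 with Cxcl10, as 0.995% of all genes compared did. With Cxcl10, 8 of the 10 GTPases had a positive r in both plates, as did 40.9% of all genes compared. The adhesion genes Icam1 (0.39 and 0.44) and Vcam1 (0.43 and 0.35) and the chemokine Cxcl1 (0.35 and 0.45) did so too.

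Setting both ligands side by side for the same genes, Irf1 had r of 0.23 to 0.36 with Cxcl9 over the TU_HEV plates and 0.52 to 0.72 with Cxcl10. For Egr1 the range was -0.02 to 0.20 with Cxcl9 and 0.40 to 0.49 with Cxcl10, and for Atf3 it was 0.06 to 0.31 and 0.46 to 0.51. Gbp2 went the other way, with 0.49 to 0.65 for Cxcl9 and 0.14 to 0.32 for Cxcl10. Leaving the ligands themselves out, 5 genes (Ifi47, Igtp, Irf8, Isg15 and Socs1) followed both, or 25.0% of the 20 for Cxcl9 and 10.4% of the 48 for Cxcl10. The difference between the 2 sets of r values was not tested. Irf1, Egr1, Atf3 and Gbp2 were each among the first 10 for 1 of the ligands in these same cells. That choice by itself favours a lower r with the other ligand. Without the highest cell of each plate, 7 of the first 10 genes remained for Cxcl9 (not Gbp11, Gbp5 or Kit) and all 10 for Cxcl10.

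In TU_EC the first 3 genes that followed Cxcl9 were of MHC class II presentation. Cd74 had r of 0.56 to 0.62 over the 4 plates, and the class II chains H2-Aa and H2-Ab1 had 0.46 to 0.61 and 0.46 to 0.58. Of class II genes too rare to enter the rule and chosen after their values were seen, Ciita, the regulator of class II genes, had 0.33 to 0.56 and the chain H2-Eb1 0.04 to 0.45. Ifi47, Gbp6, Iigp1 and Tgtp1, all interferon-induced GTPases, completed the 7. Cxcl10 was followed by Iigp1 (0.39 to 0.50), Gbp4, Cxcl9 and Gbp6, and Cxcl11 by Cxcl9, Iigp1, Gbp6, Irgm1, Igtp, Ifi47 and Gbp2. Cd74 had 0.21 to 0.33 with Cxcl10 and 0.27 to 0.48 with Cxcl11, and Egr1 -0.07 to 0.05 with Cxcl10. No gene other than Cxcl9 followed Cxcl10 in both gates, but in TU_EC the cut had to be met in 4 plates. PoolD had only 2 thinned cells with Cxcl10. Irf1 and Irgm1, which led for Cxcl10 in TU_HEV, fell short of the cut in TU_EC, with 0.25 to 0.41 and 0.25 to 0.35. They ranked 7 and 6 of 4748 genes there, while Atf3 had -0.02 to 0.19. The counts in TU_EC were small. Without the highest cell of each plate, 3 genes followed Cxcl9, 1 followed Cxcl10 and 5 followed Cxcl11, of which 4 were among its 7.

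**Figure D4:**
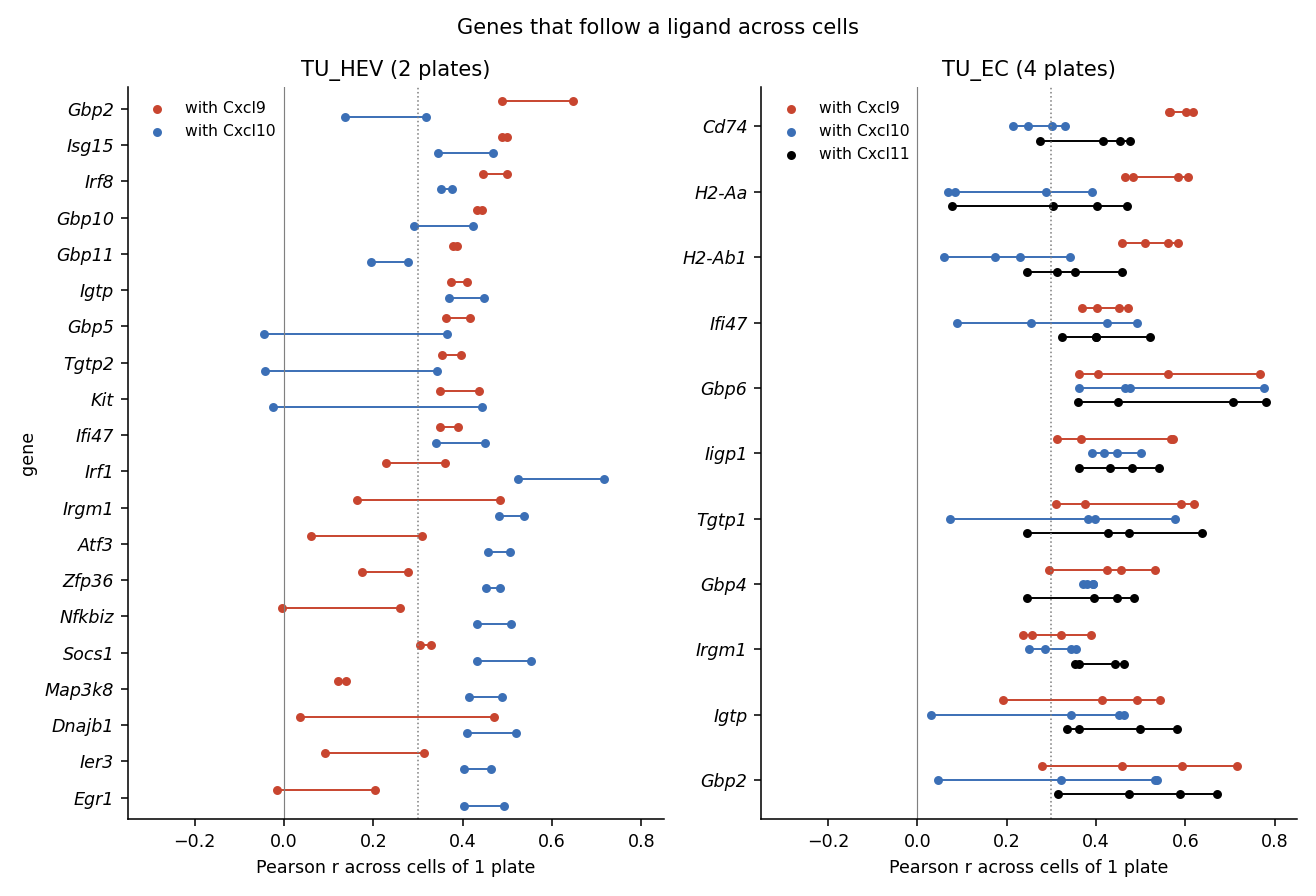
Points give Pearson's r across the cells of 1 plate between the named gene and Cxcl9 (red), Cxcl10 (blue) or, in TU_EC, Cxcl11 (black), with lines from the lowest to the highest plate and a dotted line at 0.3. In TU_HEV Irf1 has 0.52 to 0.72 with Cxcl10 and 0.23 to 0.36 with Cxcl9, and in TU_EC Cd74 has 0.56 to 0.62 with Cxcl9.

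The interferon-gamma GTPases were higher in TU_HEV as a whole, and most type I interferon effectors were too, as given below. All 10 interferon-gamma GTPases were at least 2-fold higher in TU_HEV than in LN_HEV, against 21.4% of all genes. Their median log2 ratio was 2.88, against 0.32 over all genes. Gbp2 went from 51.9 to 796 CPM and Iigp1 from 114.8 to 1232 CPM. All 10 were also at least 2-fold higher in TU_HEV than in TU_EC (median 2.64-fold), against 19.4% of all genes. With TMM scaling all 10 stayed higher, by 1.56 to 2.97-fold, and 4 reached 2-fold. The median log2 ratio over all genes was then -0.03. In the remaining comparison 5 of 10 were 2-fold higher in TU_EC than in LN_HEV, against 15.3% of all genes (median log2 1.20 against -0.13). In pooled level Cxcl9 and Cxcl11 had no such gap between the tumour gates. By share of thinned cells Cxcl9 did differ, at 45.9% in TU_HEV against 22.3% in TU_EC.

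Of the 11 interferon receptor and signalling genes, 5 (4 with TMM) were at least 2-fold higher in TU_HEV than in LN_HEV and 0 lower, against 21.4% and 6.9% of all genes. With TMM 8 of 11 were higher by any amount, and the median log2 ratio over all genes was 0.03. Irf1 was at 123.2 CPM in LN_HEV against 806 in TU_HEV, with TU_EC at 214.6, and Jak2 was at 23.4, 127.3 and 30.6 in the same order. The receptor chain Ifngr1 was at 314.4, 599.9 and 169.4 CPM. In TU_EC over LN_HEV 0 of 11 were 2-fold higher and 3 were lower (Ifngr2, Ifnar2 and Jak1), against 15.3% and 15.7% of all genes.

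Among the type I interferon effectors 8 of 10 were at least 2-fold higher in TU_HEV than in LN_HEV and 1, Mx1, was lower, against 21.4% and 6.9% of all genes. Isg15 was at 51.3 CPM in TU_HEV, 9.52 in LN_HEV and 15.5 in TU_EC. In TU_HEV over TU_EC 8 of 10 were at least 2-fold higher and 1 lower (median 3.17-fold), against 19.4% and 5.08% of all genes. With TMM scaling 6 were 2-fold higher and 1 lower (median 2.32-fold). In TU_EC over LN_HEV 5 of 10 were 2-fold higher and 2 lower, against 15.3% and 15.7%. Of the 6 NF-kB genes, Nfkbia and Tnfaip3 were at least 2-fold higher in TU_HEV than in LN_HEV and Relb was lower; with TMM Nfkbia was under 2-fold and Nfkb2 joined Relb. Tnfaip3, an inhibitor that NF-kB induces, was at 399 CPM in TU_HEV, 88.5 in LN_HEV and 48.1 in TU_EC. In TU_HEV over TU_EC 4 of 6 were 2-fold higher, and 2 of 6 with TMM, against 19.4% of all genes. Both feedback genes were at least 2-fold higher in TU_HEV than in LN_HEV and in TU_EC, against 21.4% and 19.4% of all genes. Socs3 was at 772 CPM in TU_HEV, 214.3 in LN_HEV and 263.99 in TU_EC.

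The neighbouring genes did not share the ligands' pattern as a group. Of 6, Art3 was at least 2-fold higher in TU_HEV than in LN_HEV (15.5 against 4.90 CPM) and Ppef2 was lower (0.0410 against 7.33 CPM). Of all genes 21.4% were 2-fold higher and 6.9% were lower. Art3, the gene that overlaps Cxcl10, was at 21.5 CPM in TU_EC. Naaa was at 65.9 CPM in TU_HEV, 64.2 in LN_HEV and 3.42 in TU_EC, and it was among the 49 genes that followed Cxcl10 in TU_HEV (0.34 and 0.37). The other 3, Sdad1, Nup54 and Scarb2, were within 1.77-fold of each other between TU_HEV and the other gates.

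The receptor itself was nearly absent from these cells. Cxcr3 had no count in LN_HEV or TU_HEV, where 3 counts would be 0.0211 and 0.0205 CPM, and was at 0.478 CPM in TU_EC. Ackr3, a scavenging receptor that binds CXCL11 and CXCL12, was at 134.7 CPM in TU_EC, 29.0 in TU_HEV and 1.06 in LN_HEV. Dpp4, a protease that trims the CXCR3 ligands, was under 2 CPM in each gate. Other chemokines had other orders: Cxcl12 was at 29.6, 376.8 and 446 CPM in LN_HEV, TU_HEV and TU_EC, Cxcl1 at 264.4, 272.8 and 16.6, and Ccl21a at 18828, 0.376 and 1126.

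Markers of other ligand producers were scarce in the retained cells. These cells were sorted without CD45 and had to show fewer than 3 of the 6 leukocyte markers at 10 CPM. Low leukocyte levels were thus partly set by the selection of cells. All 5 T cell markers were at 0 in TU_HEV and TU_EC. Of 6 leukocyte markers, 4 were at 0 in each tumour gate, Ptprc (CD45) among them, and their summed level by plate was 0.319 to 17.3 CPM, highest in pool1. The 6 myeloid markers summed to 11.3 CPM in TU_HEV, 7.11 in LN_HEV and 4.59 in TU_EC, and Lyz2 and Itgam were at 0 in both tumour gates. In TU_HEV 7 of the 54 cells with Cxcl9 had a myeloid marker at 10 CPM or more, and 4 of the 44 others. For Cxcl10 it was 6 of 43 and 5 of 55, and a leukocyte marker at that level was found in 3 of 43 and 0 of 55. In TU_EC a myeloid marker was found in 4.05% of the 74 cells with Cxcl9 and 6.55% of the others. A leukocyte marker was found in 4.05% and 2.18% of these, in 6.67% of the 30 cells with Cxcl10 and 2.20% of the others, and in 7.69% of the 26 cells with Cxcl11 and 2.17% of the others. Their part in the ligand levels was not tested.

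Vessel classes were described by cells with at least 3 of 6 class markers at 10 CPM or more. These are ranges of a score and may overlap. In TU_HEV 73 cells passed the venous markers (Selp, Ackr1, Vwf, Lrg1, Vcam1 and Sele) and 25 did not, with 16 cells at 2 or 3 markers. Cxcl10 was at 561 CPM in the 73 and 64.3 in the 25, and in 45.2% and 24.0% of thinned cells, whose intervals overlap (33.5 to 57.3 and 9.36 to 45.1). By plate the shares were 45.0% and 30.0% in pool3 and 45.5% and 20.0% in pool4. Cxcl11 was at 127.9 and 9.72 CPM, with 14 and 3 cells, while Cxcl9 was at 476 and 510.3 CPM, in 45.2% and 48.0% of cells. With at least 4 markers, which 68 cells had, Cxcl10 was at 598 CPM against 86.4, but Cxcl11 turned to 74.3 against 175.8 and Cxcl9 was at 370.2 against 776. Vcam1 is both one of these markers and a gene that followed Cxcl10. At least 3 capillary markers (Cd36, Gpihbp1, Rgcc, Fabp4, Car4 and Cd300lg) were found in 91 TU_HEV cells, so most cells were in both classes. With at least 4, which 49 cells had, Cxcl9 was at 754 CPM against 196.2 in the other 49. The shares were 59.2% (44.2 to 73.0) and 32.7% (19.9 to 47.5). In TU_EC the Cxcl9 shares at that cut were 25.0% and 21.7%.

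Smaller classes gave wider intervals. Of the TU_HEV cells 11 had 3 or more high endothelial markers (34 were at 2 or 3), and Cxcl10 was at 1066 CPM in them and 349.5 in the other 87, in 63.6% (30.8 to 89.1) and 36.8% (26.7 to 47.8) of cells. In pool3 these shares were 85.7% and 34.9%, and in pool4, with 4 such cells, 25.0% and 38.6%. No TU_HEV cell had 4 high endothelial markers. The 9 cells with tip markers, genes of sprouting vessels, had Cxcl10 at 12.7 CPM against 510.3 in the other 89, and Cxcl9 at 584 against 471. With at least 4 tip markers, which 5 cells had, these were 24.5 against 481 and 1128 against 444.

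In TU_EC 180 cells had 3 or more tip markers. Cxcl10 was at 51.1 CPM in these and 291.6 in the rest, and in 5.62% (2.73 to 10.1) and 13.1% (7.69 to 20.4) of cells. Among 90 cells with arterial markers Cxcl10 was found in 2.22% (0.270 to 7.80) against 11.4% (7.46 to 16.5) of the rest, while Cxcl9 was found in 22.2% and 22.4%. The 39 venous cells had Cxcl10 at 459 CPM against 84.9, in 12.8% and 8.05% of cells, and at 132.1 against 45.6 without the highest cell of each. Of the 9 cells with lymphatic markers 2 had a count of Cxcl9, 0 of Cxcl10 and 1 of Cxcl11.

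**Figure D5:**
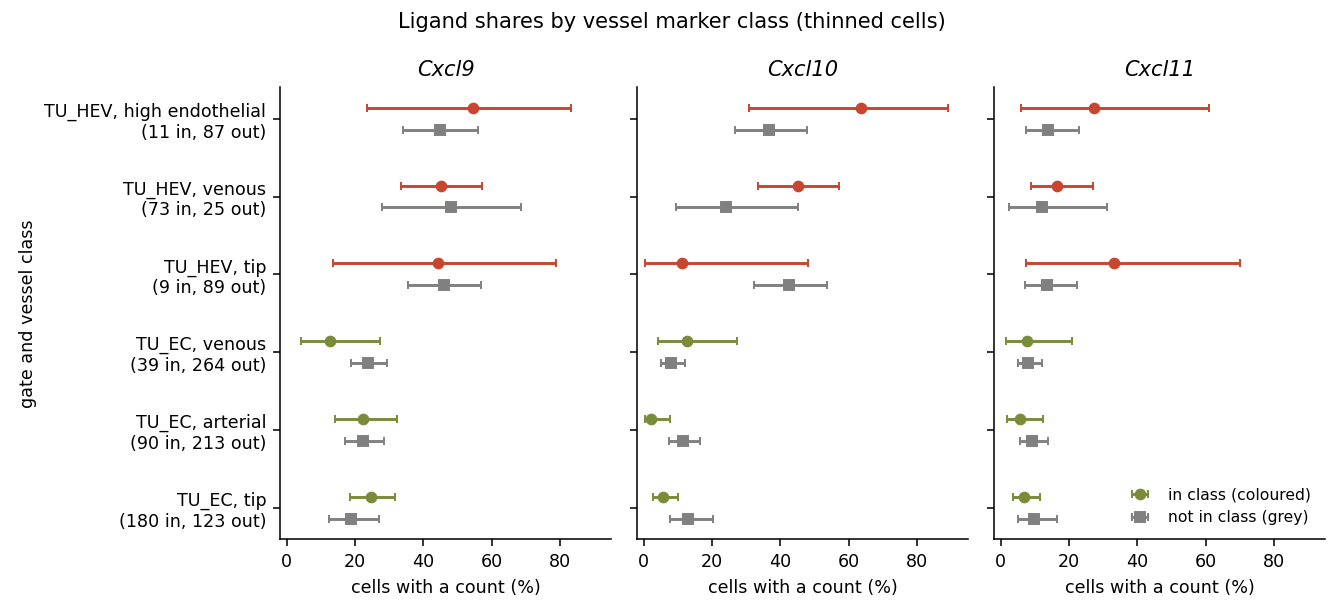
Points give the percentage of thinned cells with a count of each ligand, in cells that have at least 3 of 6 class markers (coloured circles) and in the rest of the gate (grey squares), with exact binomial 95% intervals. For Cxcl10 the arterial and tip cells of TU_EC, at 2.22% and 5.62%, lie below the rest of that gate, and for Cxcl9 they lie at 22.2% and 24.7%.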

How the data were processed

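Single sorted cells were sequenced by Smart-seq2, a full-length method without molecular identifiers, per the labels' protocols. The authors deposited raw counts of reads per gene and cell in 2 tables. The mm10 build is named in the submitters' processing notes, as are the tools Subread (1.4.6-p2), STAR (2.4.1b) and FastQC (0.11.4). The strand setting is not given in the sources used here.

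Of 768 libraries, 542 were used. The 11 pool1 libraries named by the rule were dropped. Wells needed 50000 counts, 1000 genes, at most 30% mitochondrial counts and 2 of 5 pan-endothelial genes at 10 CPM. They also had to show fewer than 3 of 6 markers at 10 CPM of each of these lists: leukocyte, epithelial and tumour, mural and fibroblast. Myeloid and lymphatic markers were not used as filters. The 91 repeated symbols were summed. Levels are pooled counts per gate or plate, as CPM, with exact Poisson 95% intervals. Ratios have exact conditional binomial intervals. Plates are not known to be separate animals, and cells are not replicates, so no p-value was computed. PCR reads are not independent molecules, so intervals cover counting error only.

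Correlations, and percentages of cells with a ligand by gate, plate and vessel class, used cells thinned to 100000 counts (seed 1). Cells in which a ligand was found with another ligand, or with a leukocyte or myeloid marker, were counted without thinning. A gene's r needed 20 thinned cells with the ligand, and up to 10 genes with the highest smallest r over plates were named per ligand and gate. The ligands, the gene lists and the rules were chosen with earlier results of these data known. Python 3.11.15, numpy 2.4.6, pandas 2.3.3 and scipy 1.17.1 were used, with TMM factors from edgeR 4.0.16 in R 4.3.3. The scripts were tested on simulated data. Alternatives covered scaling, thinning, cell filters, the dropped libraries, single plates and single cells.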

Additional observations from a re-analysis of the deposited data

Results flagged for a closer look

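Wells that no comparison used also held ligand counts. In the 7 LN_HEV wells left out by the endothelial rule Cxcl9 was at 12.2 CPM, in the 3 such TU_HEV wells at 78.0 CPM, and in the 6 such TU_EC wells at 134.6 CPM, with Cxcl10 at 17.4 CPM. In the 91 TU_HEV wells under the read filters Cxcl9 was at 439 CPM and Cxcl10 at 174.2 CPM. In the 75 such TU_EC wells Cxcl9 was at 94.6 CPM and Cxcl11 at 0.649 CPM. The 11 dropped pool1 libraries, which hold counts of TU_HEV libraries, had Cxcl9 at 244.4 CPM, Cxcl10 at 483 CPM and Cxcl11 at 121.3 CPM. These levels are listed because they come from wells outside the comparisons.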

How the results depend on the processing

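With the 11 pool1 libraries put back, TU_HEV over LN_HEV was 8.84 for Cxcl9 and 4.18 for Cxcl10, and TU_EC over LN_HEV was 7.14 for Cxcl9. With equal weight per cell Cxcl9 was 9.66 in TU_HEV and 6.22 in TU_EC over LN_HEV. TU_HEV over TU_EC for Cxcl9 was 0.906 with TMM, and leaving out 1 plate at a time gave 0.900 to 2.07 for Cxcl9 and 0.243 to 1.51 for Cxcl11; the cause was not tested. Without the pool1 libraries S23, S26, S29 and S33, an alternative chosen after seeing the data, TU_HEV over LN_HEV was 43.2 for Cxcl9 and 16.6 for Cxcl10. Apart from 5 ratios that moved and 5 that reversed, all among those above, the ratios tried moved by no more than the spread of the plates. That spread, from SDs of log2 CPM over the 2 or 4 plates of a gate, was wide, at 2.61 for Cxcl10 in TU_EC. Large changes lay within it. With the 11 libraries put back, Cxcl10 in TU_EC over LN_HEV went from 4.87 to 1.28. Cxcl11 in TU_HEV over LN_HEV went from 8.62 to 3.29.

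In TU_EC, genes that followed Cxcl9 numbered 14 without thinning, 13 at 10% detection and 3 without the highest cell of each plate, against 7. For Cxcl10 they numbered 1 by Spearman, 7 at 10% detection and 1 without the highest cells, against 4, and for Cxcl11 3 by Spearman and 12 at 10% detection, against 7. No paired analysis was possible because the result comes from no test and the replicate numbers only name wells. The depth of the shallowest cells limits shares: a cell thinned to 100000 counts can miss a ligand that it holds.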
